A study of Mus musculus with 15 samples.

Results

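Apoe encodes apolipoprotein E, and its messenger RNA was followed across the 3 groups of a mouse study of brain haemorrhage. The gene was represented by 1 probe, A_51_P171999, whose accession in the scanner files (NM_009696) matched the symbol Apoe. It was 1 of 60823 non-control probes, 1 of the 51669 that could be tested and 1 of the 45 tested probes whose accession gave a gene symbol. Tissue came from the ipsilateral striatum (basal ganglia in the protocol) of male mice at day 14. Sham mice and mice with intracerebral haemorrhage (ICH, bleeding into the brain tissue) were gavaged with water. The third group had ICH and received Buyang Huanwu decoction (BYHWD), a multi-herb preparation of traditional Chinese medicine, by daily gavage at 6.19 g/kg. Each group had 5 samples, each on its own single-colour Agilent array. All mice were perfused with saline before the tissue was taken. How the bleeding was produced, the strain, the age and the sham procedure are not given in the sources used here. The labels do not say that each sample was a separate mouse, so every p-value measures the spread between these samples.

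Apolipoprotein E is the main carrier of cholesterol and phospholipid between cells of the brain. Astrocytes secrete it under normal conditions, and microglia that take up debris and myelin lipid switch it on. The particles it forms are taken up through receptors of the low-density lipoprotein receptor family. In the genome Apoe lies between Tomm40, a gene of the mitochondrial import channel, and Apoc1, another apolipoprotein gene, and neither had a named probe on this array.

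The arrays lay on 3 slides, which did not match the 3 groups one to one. On slide 1 ran all sham arrays, 5 in number, next to ICH 2 and ICH 3. The 3 remaining ICH arrays (ICH 1, 4 and 5) made up slide 2. All BYHWD arrays were on slide 3. The slides differed in brightness. The 99th percentile of the signal over all non-control spots was 88790 to 105974 intensity units on slide 1, 37503 to 42292 on slide 2 and 51298 to 70485 on slide 3. The 75th percentile, which served to scale the arrays, was 421 to 540 units on slide 1, 261 to 303 on slide 2 and 274 to 386 on slide 3. The tissue label could not be checked with markers, because no marker of astrocytes, microglia, macrophages, neurons or striatal projection neurons from the lists used here had a named probe.

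Before any scaling, Apoe was a bright and evenly measured feature. Each array carried 10 spots of the probe, and all 150 spot values were well above background. None of the 150 was saturated, and the brightest Apoe spot of an array reached 10.8% to 24.1% of the scanner's saturation value. The local background beside these spots was 13 to 27 units. The coefficient of variation over the 10 spots was 1.31% to 10.1% per array, the highest on ICH 5. On BYHWD 2, 1 outlying spot was left out of the log2 levels. The signals in intensity units and the spread over spots keep all 10 spots. The SD over the spots of an array was 0.019 to 0.144 on the log2 scale. The SD between the arrays of a group after scaling was 0.11 (sham) to 0.37 (BYHWD). Before scaling, that SD of the log2 signal was 0.025 for sham, 0.55 for ICH and 0.36 for BYHWD.

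The mean unscaled signal on sham 1 to 5 was 83504, 86361, 87184, 86976 and 85634 units. These arrays were nearly alike, with a coefficient of variation of 1.73%. On the ICH arrays of slide 1 the signal was 163042 (ICH 2) and 178954 units (ICH 3). Every one of their 20 spots, at 158476 to 187278 units, was brighter than all 50 sham spots, at 81804 to 91421 units. On the ICH arrays of slide 2 the signal was 80224 (ICH 1), 81390 (ICH 4) and 103692 units (ICH 5). ICH 1 and ICH 4 lay below all sham arrays in unscaled signal and ICH 5 above them, on the slide whose arrays were dimmest at both percentiles. On BYHWD 1 to 5 the signal was 85000, 143299, 94372, 112493 and 148226 units. BYHWD 1 lay within the sham range, and the other 4 BYHWD arrays lay above it.

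After each array's 75th percentile was subtracted on the log2 scale, the Apoe level on sham 1 to 5 was 7.59, 7.56, 7.42, 7.33 and 7.51. On ICH 1 to 5 it was 8.21, 8.49, 8.73, 8.07 and 8.63. On BYHWD 1 to 5 it was 7.78, 8.68, 8.43, 8.52 and 8.64. All 10 arrays of mice with ICH, treated or not, stood above all 5 sham arrays, and the ICH and BYHWD arrays overlapped. The mean was 7.48 ± 0.11 for sham, 8.43 ± 0.28 for ICH and 8.41 ± 0.37 for BYHWD (SD, n = 5 each). Sham was thus lowest, while ICH and BYHWD, neighbours in this order, did not differ beyond their spread.

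**Figure D1:**
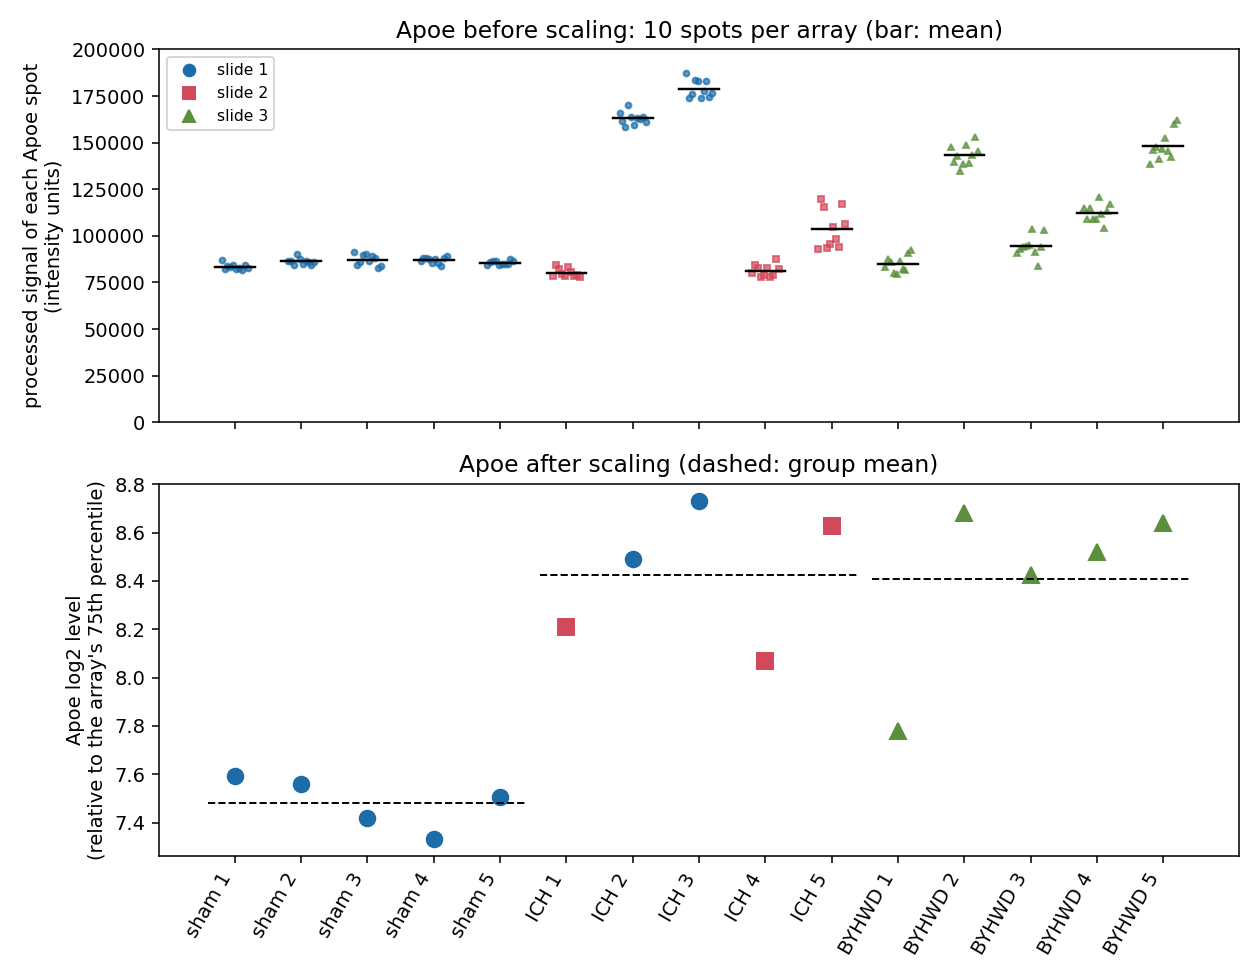
Apoe on each of the 15 arrays. The upper panel plots the processed signal of every spot in intensity units, with a bar at the array mean, and the lower panel plots the log2 level relative to the array's 75th percentile, with a dashed line at the group mean; colours and shapes mark the slide. Before scaling ICH 1 and ICH 4 of slide 2 lie just below the sham arrays, ICH 5 above them at 103692 units, and the 2 ICH arrays of slide 1 at 163042 and 178954 units; after scaling all ICH arrays lie between 8.07 and 8.73, above the sham arrays at 7.33 to 7.59.

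The first comparison asked how Apoe differed between injured and uninjured striatum. The ICH mean of Apoe was 1.92 times the sham mean, a log2 difference of 0.94 ± 0.17 SE with a 95% interval of 0.59 to 1.30 (1.50-fold to 2.46-fold). It passed the test across all probes (limma, adjusted p = 0.00825), in which 5.03% of the 51669 probes were called in either direction. The higher of the group ranges began at 8.07 and the lower ended at 7.59, and 3.95% of probes had all ICH arrays above all sham arrays. By p-value Apoe ranked 250th, and 971 probes (1.88%) had a log2 difference at least as large. Among the 45 named genes it had the fifth largest difference, and 5 of the 45 were called. The exact permutation test over the 252 groupings gave p = 0.00794, 2-sided, the smallest value it can give, with an adjusted p of 0.0233 over 44 such tests. Those 44 tests use the same arrays, and most restate Apoe under another scaling or reference. The adjusted p therefore depends on which were included and does not cover separate questions. Within bulk tissue, a different number of cells of a type and a different amount of RNA per cell cannot be told apart.

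ICH and sham could be compared inside slide 1, where the arrays were alike in brightness. There the 2 ICH arrays exceeded the 5 sham arrays by 1.13 ± 0.21 SE on the log2 scale when the spread came from all 15 arrays (limma, adjusted p = 0.0407, 0.339% of probes called). A fit to the 7 arrays of slide 1 alone gave 1.13 ± 0.14 SE (limma, adjusted p = 0.0231, 0.437% of probes called). The same fit on the unscaled signal gave 0.99 ± 0.13 SE, or 1.99-fold (limma, adjusted p = 0.0384, 0.19% of probes called). Both ICH arrays of slide 1 lay above all sham arrays, as they did for 7.5% of probes on the scaled level. Inside slide 1 the Apoe difference was therefore about as large with scaling as without it. An exact permutation test of 2 arrays against 5 cannot go below p = 0.0952, 2-sided, and gave that value for the scaled and for the unscaled level. In a fit of sham, BYHWD and the ICH arrays of slide 1, the difference was again 1.13 ± 0.21 SE and did not pass (limma, adjusted p = 0.0599).

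The ICH arrays of slide 2 gave a different picture before and after scaling. Their scaled Apoe level exceeded sham by 0.82 ± 0.18 SE (limma, adjusted p = 0.0029, 36.5% of probes called), whereas their unscaled log2 signal differed from sham by 0.03. The difference between the ICH arrays of slide 2 and slide 1 was -0.31 ± 0.23 SE (limma, adjusted p = 0.366, 22.0% of probes called). Its direction depended on the scaling, being 0.21 after quantile normalization, 0.32 relative to the 99th percentile, 0.11 relative to the bright corner control spots and -0.96 without scaling. The ICH arrays of the 2 slides could thus not be put in order for Apoe.

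The size of the Apoe difference depended on how arrays were made comparable, and its direction did not. For ICH against sham the log2 difference was 1.21 after quantile normalization (limma, adjusted p = 0.00113) and 1.20 relative to the 99th percentile (adjusted p = 0.00176). It was 1.12 relative to the bright corner spots (limma, adjusted p = 0.00147) and 0.87 relative to the array median (adjusted p = 0.0233). Without scaling it was 0.41 ± 0.23 SE and did not pass (limma, adjusted p = 0.138). In that unscaled fit the median of all tested probes shifted by -0.48, so the typical probe was lower in ICH while Apoe was higher. For the 99th percentile and the bright corner spots the median of all probes shifted by 0.30 and 0.22, and for the 75th percentile by 0.05.

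**Figure D2:**
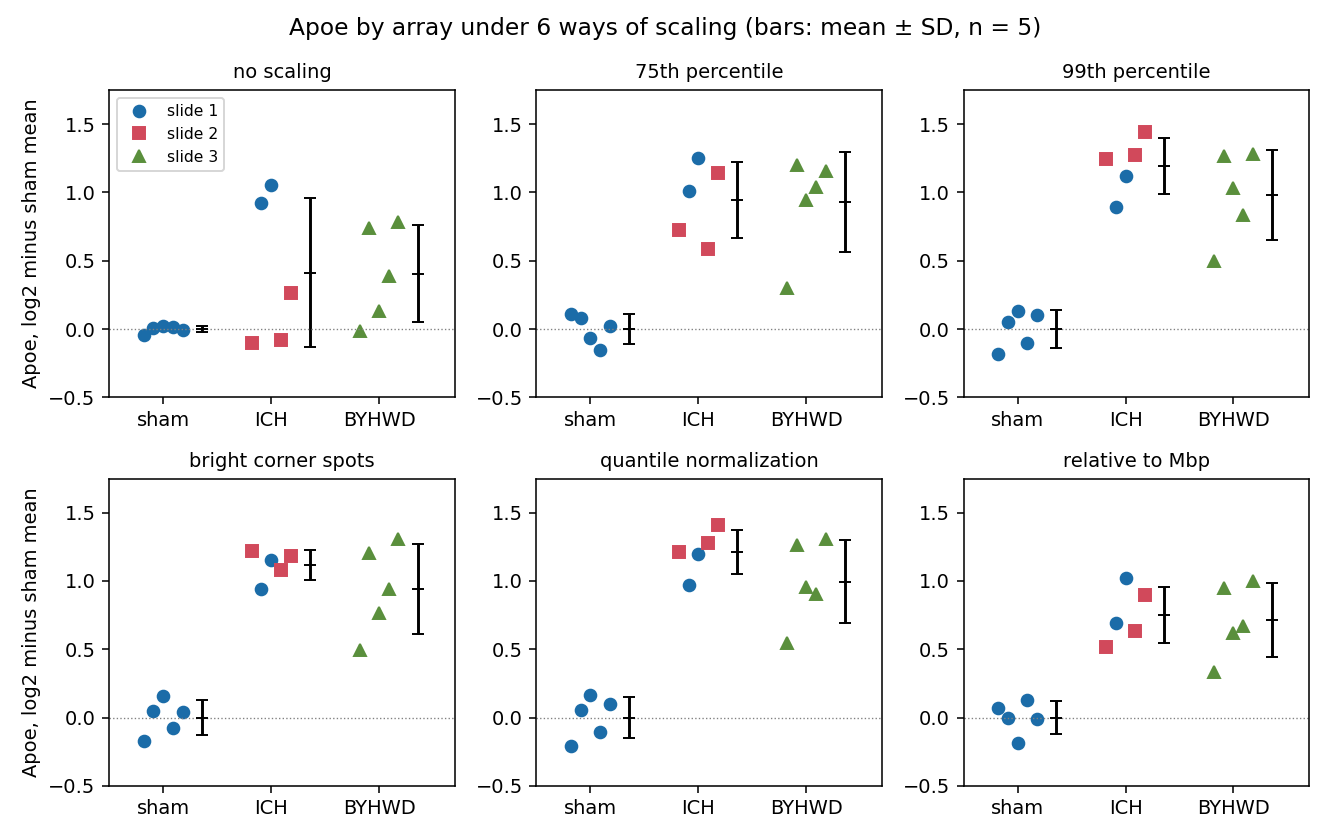
Apoe on each array under 6 ways of making arrays comparable, as log2 units above the mean of the sham arrays under the same scaling. Points are arrays, colours and shapes mark the slide, and the bars give mean ± SD of 5 arrays; under the 5 scalings every ICH and BYHWD array lies above every sham array, and without scaling ICH 1 and ICH 4 of slide 2 fall below the sham arrays while ICH 5 stays above them.

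Mbp, which encodes the basic protein of myelin and is bright on these arrays, gave a reference within the array that needs no scaling. Its own scaled log2 level averaged 8.07 ± 0.16 on sham arrays, 8.27 ± 0.14 on ICH arrays and 8.29 ± 0.16 on BYHWD arrays (SD, n = 5 each). The ICH difference of Mbp was 0.19 ± 0.11 SE and did not pass (limma, adjusted p = 0.272). The Apoe signal relative to that of Mbp was 0.75 log2 units higher in ICH than in sham (exact permutation test, 2-sided p = 0.00794, adjusted p = 0.0233 over 44 tests). It was 0.86 higher on the ICH arrays of slide 1 and 0.68 higher on those of slide 2. This shows unequal change of the 2 probes and not that Mbp was constant.

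A sign of RNA quality differed between the groups and between the slides. The array has Gapdh control probes toward either end of the transcript, and the excess of the 3′ over the 5′ signal is commonly read as a sign of RNA breakdown. The log2 excess averaged 0.23 ± 0.15 on sham arrays, 0.61 ± 0.19 on ICH arrays and 0.48 ± 0.10 on BYHWD arrays (SD, n = 5 each). The ICH difference of 0.38 had a 2-sided exact permutation p of 0.0159 (adjusted p = 0.0437 over 44 tests). The excess was 0.42 on the ICH arrays of slide 1 and 0.73 on those of slide 2. Inside slide 1 the ICH arrays exceeded sham by 0.20, and the arrays overlapped. The exact permutation test there gave p = 0.190, 2-sided, where 0.0952 is the smallest value it can give. The part of the Gapdh shift in the Apoe difference was not tested.

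The treatment comparison asked whether Apoe differed in ICH mice given the decoction. It did not differ past the test. BYHWD minus ICH was -0.015 ± 0.168 SE on the log2 scale (limma, adjusted p = 0.960, 6.13% of probes called). The 95% interval ran from -0.37 to 0.34, so these arrays leave room for a level between 0.773-fold and 1.27-fold that of ICH. The estimate lay close to 0, and its sign changed with single arrays. Without BYHWD 1 the difference was 0.14 ± 0.14 SE (limma, adjusted p = 0.530). Against the ICH arrays of slide 1 it was -0.20 (limma, adjusted p = 0.614), and against those of slide 2 it was 0.11 (adjusted p = 0.688). After quantile normalization it was -0.22 (limma, adjusted p = 0.303), and -0.30 against the ICH arrays of slide 2 alone (adjusted p = 0.148). Among the 42 alternatives counted below the lowest value was -0.31, against those arrays after normexp correction (limma, adjusted p = 0.130). Relative to the 99th percentile the difference from those arrays was -0.34, for which no test was run. Relative to the 3′ Gapdh control, BYHWD minus ICH was 0.27 (exact permutation test, 2-sided p = 0.262). On that reference it was 0.47 against the ICH arrays of slide 2, again with no test run. BYHWD filled a slide of its own, so the decoction and the slide cannot be told apart.

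BYHWD was also set against sham, to place the treated group against the uninjured one. The BYHWD mean was 1.90 times that of sham, a log2 difference of 0.93 ± 0.17 SE with a 95% interval of 0.57 to 1.28 (limma, adjusted p = 0.00275). In this comparison 17.3% of probes were called, and 12.3% had all BYHWD arrays above all sham arrays, as Apoe had. Apoe had the third largest difference of the 45 named genes. Relative to Mbp it was 0.71 log2 units higher (exact permutation test, 2-sided p = 0.00794, adjusted p = 0.0233 over 44 tests). Both groups with ICH were compared with the same sham arrays, so the 2 differences share their error. With the slide as a random block the estimate was 1.02 ± 0.30 SE and did not pass (limma, adjusted p = 0.390), and without scaling it was 0.41 and did not pass (adjusted p = 0.150). No sham array shared a slide with BYHWD, so slide and group cannot be told apart here either.

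**Figure D3:**
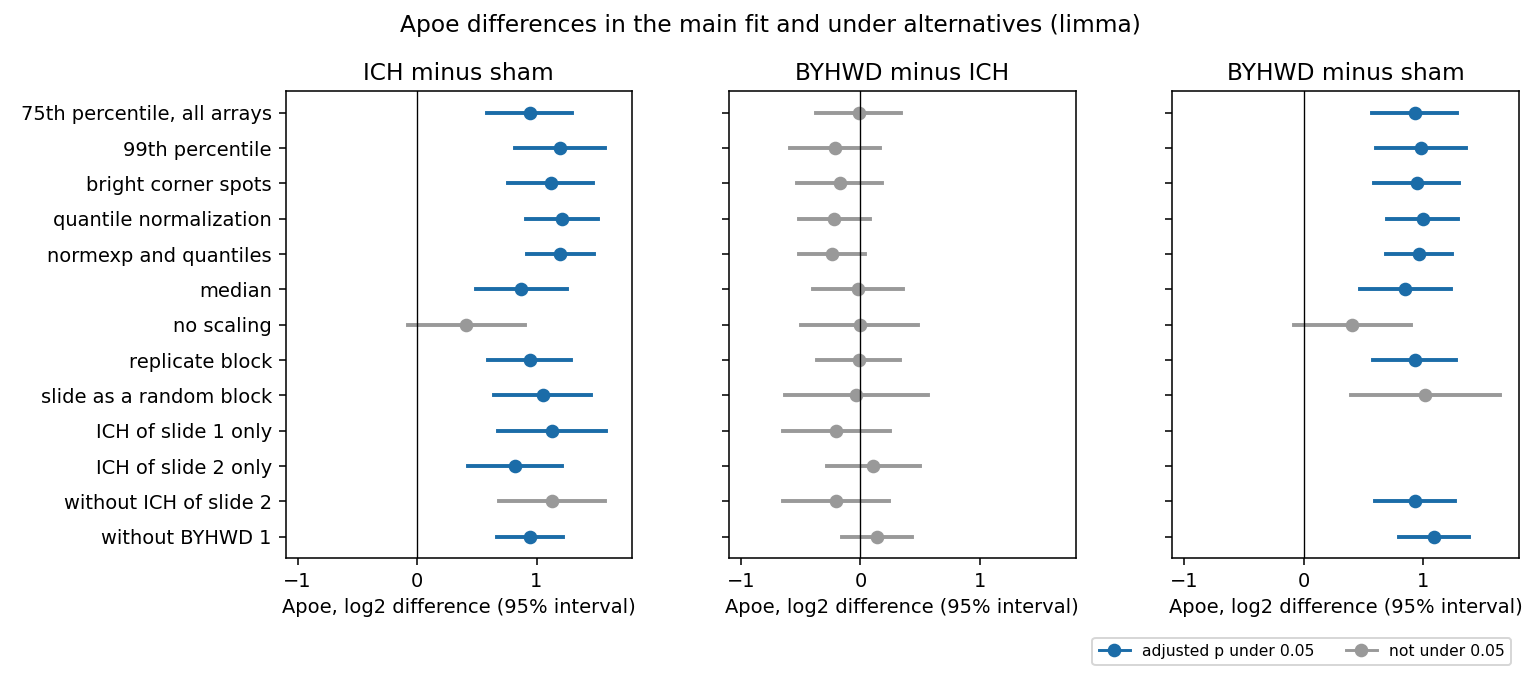
Log2 difference of Apoe in each comparison, as points with 95% intervals from limma, for the scaling by the 75th percentile over all arrays (top) and for other scalings, blocks and subsets of arrays. Blue marks an adjusted p under 0.05 and grey the others; ICH minus sham is 0.94 in the top line and 0.41 without scaling, BYHWD minus ICH lies on either side of 0 and is grey throughout, and a line is empty where the setting gives no value for that comparison.

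In scaled level the BYHWD arrays were the most spread (SD 0.37), and in unscaled log2 signal the ICH arrays were (SD 0.55 against 0.36 for BYHWD). BYHWD 1, at 7.78, was nearest to sham, and the other 4 lay between 8.43 and 8.68. The residual SD of Apoe over the 3 groups was 0.273, against a median of 0.253 over all tested probes (56.7th percentile), so its scatter within groups was close to that of a typical probe.

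The 5 named genes whose profile over the 15 arrays was most like that of Apoe were Gsdmd, H2-Q7, H2-M2, Mbp and Hyal3. Likeness was Pearson's r on the scaled log2 level, given as a description because the arrays share group, slide and scaling. Gsdmd, which encodes the pore-forming protein gasdermin D of inflammatory cell death, had r = 0.90, and 0.84 after each group's mean was removed. H2-Q7, a class I histocompatibility gene, had r = 0.88 (0.66 with group means removed). H2-M2, another gene of that family, had r = 0.77 (0.75 with group means removed), and Mbp had r = 0.76 (0.66). Hyal3, a hyaluronidase gene, had r = 0.69, which fell to 0.09 with group means removed. Class I genes are close in sequence, and whether the H2 probes separate them was not tested.

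A high r with Apoe was not common among all probes, nor unique to the named ones. Of the other 51668 tested probes, 605 had an r of at least 0.8 and 148 of at least 0.9. Among the 44 other named genes, 2 reached 0.8. The median r was -0.05 over the named genes and 0.03 over all probes. The lowest values among named genes belonged to Uhrf1bp1l (-0.43), the cell-cycle transcription factor gene E2f1 (-0.38) and the olfactory receptor gene Olfr1307 (-0.35).

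Gsdmd and H2-Q7 were higher in ICH and in BYHWD than in sham, as Apoe was. The scaled log2 level of Gsdmd was -2.04 ± 0.19 for sham, -1.06 ± 0.26 for ICH and -1.45 ± 0.38 for BYHWD (SD, n = 5 each). Its log2 difference was 0.97 for ICH against sham (limma, adjusted p = 0.00862), -0.38 for BYHWD against ICH (adjusted p = 0.169) and 0.59 for BYHWD against sham (adjusted p = 0.0308). H2-Q7 stood at 1.87 ± 0.35, 3.69 ± 0.45 and 3.09 ± 0.57 in the same order. Its log2 differences were 1.82 (limma, adjusted p = 0.00434), -0.61 (adjusted p = 0.158) and 1.22 (adjusted p = 0.00783). For Apoe the second of these differences was -0.015, and whether it differed from those of Gsdmd and H2-Q7 was not tested. H2-M2 differed by 0.47 between ICH and sham (limma, adjusted p = 0.138) and Hyal3 by 0.52 (adjusted p = 0.0666), neither past the test. Hyal3 was higher in BYHWD than in sham (log2 difference 0.72, limma, adjusted p = 0.00839). Without scaling, the ICH differences of H2-M2, Mbp and Hyal3 were -0.06, -0.34 and -0.01, whereas those of Gsdmd and H2-Q7 were 0.45 and 1.29.

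**Figure D4:**
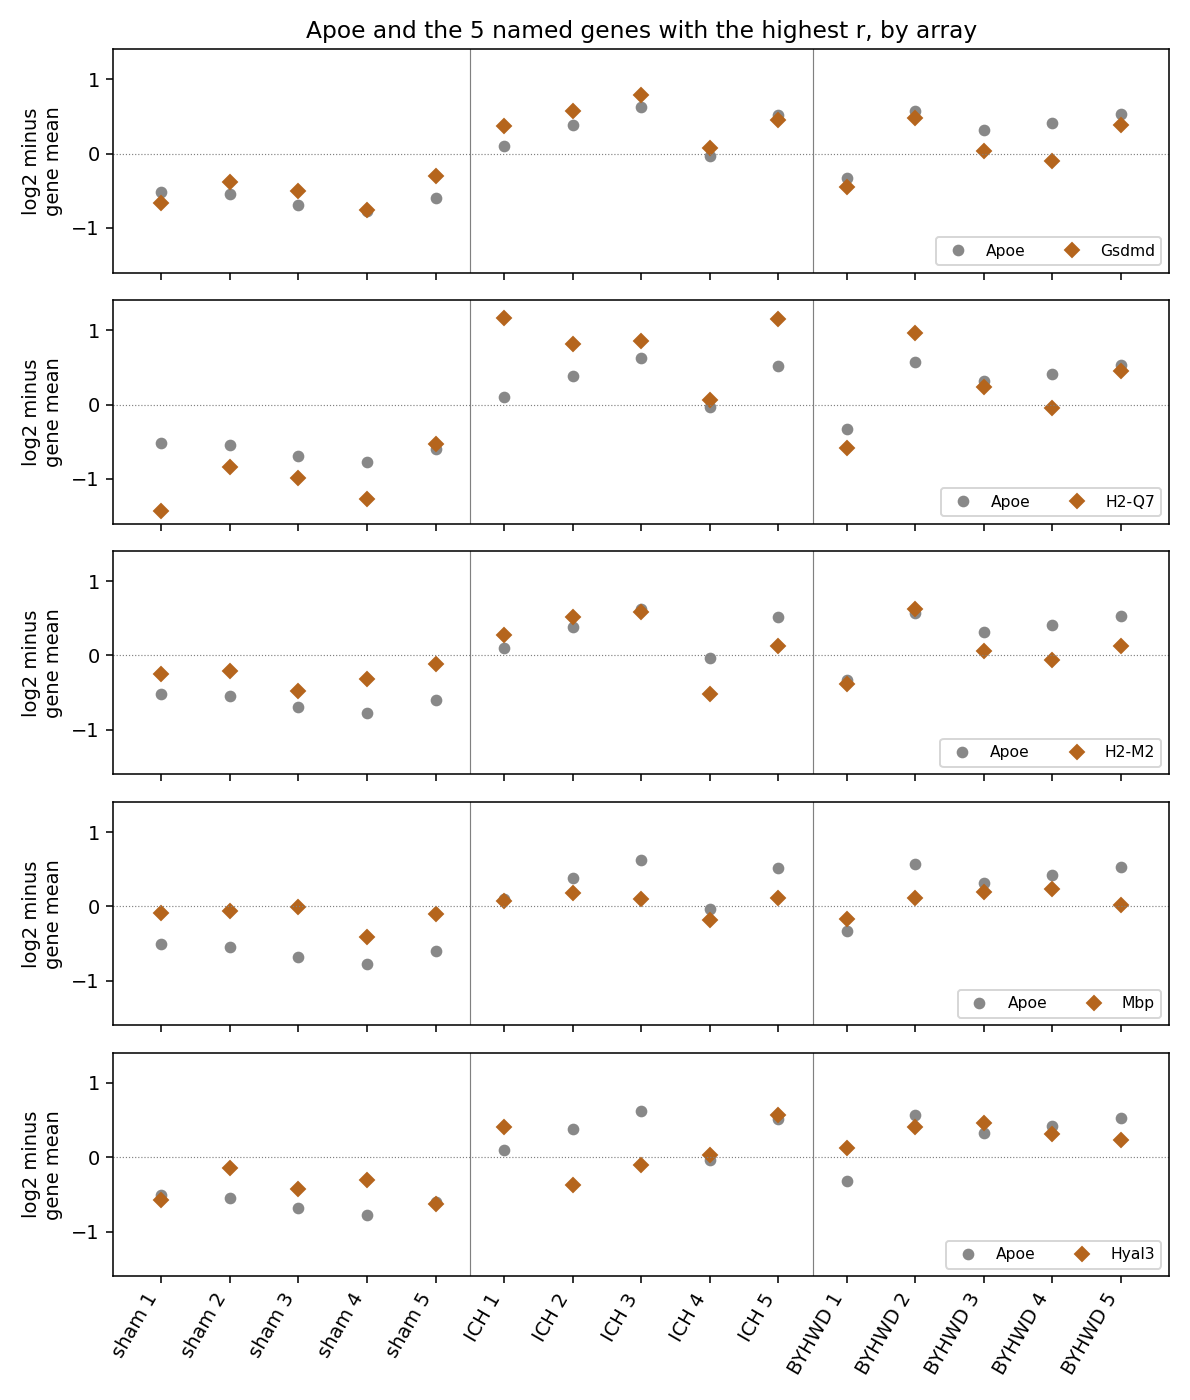
Scaled log2 level of Apoe (grey) and of the 5 named genes with the highest r with it (orange), each minus its own mean over the 15 arrays, array by array; vertical lines separate sham, ICH and BYHWD. Gsdmd (r = 0.90) and H2-Q7 (r = 0.88) lie low on the sham arrays and on BYHWD 1 with Apoe, while Mbp (r = 0.76) follows with smaller differences.

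Few partners of Apoe in lipid handling could be read. Of 34 genes on the list of lipoprotein and cholesterol handling, 1 had a named probe, Apoe itself, and the same held for the 20 genes of the disease-associated microglia list. None of the 8 genes listed as genome neighbours had one. Of 27 genes for fatty acid use and peroxisomes, 3 were measured, and 0 of 3 passed limma's test in any of the 3 comparisons. Over all tested probes 5.03% were called for ICH against sham, 6.13% for BYHWD against ICH and 17.3% for BYHWD against sham. With 3 genes, 0 calls is close to those shares and does not show a lack of response. Ppara, the nuclear receptor that drives fatty acid oxidation, differed by -0.02 between ICH and sham (limma, adjusted p = 0.930). Cpt1a, which admits fatty acids to mitochondria, differed by 0.21 (limma, adjusted p = 0.344). Pex11a, a peroxisome division gene, differed by -0.40 (limma, adjusted p = 0.160), with the ICH arrays of slide 1 at 0.11 above the sham mean and those of slide 2 at -0.73 relative to it. In the unscaled fit the values of Ppara and Cpt1a were -0.55 and -0.32, and relative to the 99th percentile they were 0.23 and 0.46, so the sign of neither was fixed, nor was that of Pex11a between slides.

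The cell type lists could not show which cells carried the Apoe signal. Of 90 markers in 12 lists, 3 had a named probe, namely Mbp of oligodendrocytes and, from the lymphocyte and plasma cell list, Mzb1 and Il2. Mzb1, a chaperone gene of plasma cells, was 0.69 higher in ICH than in sham on the log2 scale (limma, adjusted p = 0.0266). Il2, the gene of a T cell growth factor, was 1.16 higher (limma, adjusted p = 0.0431). Il2 was dim, with a scaled log2 level of -5.15 to -4.80 on the sham arrays. Its level was -4.87 on ICH 2 and -4.63 on ICH 3 of slide 1. On ICH 1, 4 and 5 of slide 2 it was -3.16, -3.16 and -2.96. The part of background in these low values was not tested. On the ICH arrays of slide 1 Mzb1 and Il2 were 0.29 and 0.17 above the sham mean, where Apoe was 1.13 above it. Both of these arrays lay above all sham arrays for Mzb1 and for Apoe, as for 7.5% of probes, and not for Il2. For Mzb1 the gap was narrow, with ICH 3 at -3.40 against the highest sham array at -3.44. For Apoe the lower of the 2 was at 8.49 against 7.59. With group means removed, r with Apoe was -0.49 for Mzb1 and -0.33 for Il2. The part of other cell types in the Apoe difference was not tested.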

How the data were processed

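Spot intensity, as deposited, is the processed signal of Agilent Feature Extraction 11.0.1.1, corrected for background inside an array and not scaled across arrays, per the file headers. For the deposited table of log2 values (34099 probes) the processing is not given in the sources used; Apoe was not analysed in it, and it served only for the share of probes called. Outlying spots were left out, replicate spots were averaged as log2 of the processed signal, and each array's 75th percentile over non-control spots was subtracted. Probes well above background on at least 5 arrays were tested (51669). The test was limma 3.58.1 in R 4.3.3, lmFit then eBayes, 2-sided, over all 15 arrays and 3 groups, with Benjamini-Hochberg adjusted p under 0.05 over all tested probes. Bright corner spots are control features printed on every array. Slides came from the scan identifiers in the files. Of 50 accessions, 46 matched the RefSeq gene table (GRCm38.p6) and 45 of these probes were tested; no coordinates are given, since the files name another build. Named genes were the 5 with the highest and the 3 with the lowest r with Apoe, and the measured members of 16 lists. The members and lists were chosen with earlier results of these data known. The limma step was checked on simulated arrays with independent noise and no slide effect, unlike these data. Of 200 changed probes it recovered 5% at 1.5-fold, 63.5% at 2-fold and 98% at 4-fold. Precision is limited by the number of arrays, 5 a group.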

Additional observations from a re-analysis of the deposited data

Results flagged for a closer look

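In each group of 5 arrays, the scaled log2 level of Apoe and of 13 other named genes, the unscaled log2 signal of Apoe and the difference between Apoe and Mbp were checked for an array far from the rest, by the gap to its nearest neighbour over the range of the group, against a critical value of 0.71. Of 48 sets of values 4 passed it, where chance gives about 1 in 20. The scaled level of Apoe was 7.78 on BYHWD 1 against 8.43 to 8.68 on the other BYHWD arrays (ratio 0.717). Without that array BYHWD minus sham was 1.09 and BYHWD minus ICH was 0.14 (limma, adjusted p = 0.530). The unscaled Apoe signal and the difference between Apoe and Mbp did not pass the critical value in any group. For Mbp, sham 4 had 7.79, below the 8.11 to 8.20 of its group. E2f1 was -3.73 on BYHWD 5 against -3.18 to -2.99 on the others. Ppara was -2.11 on BYHWD 2 against -1.94 to -1.88 on the others.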

How the results depend on the processing

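ICH minus sham of Apoe kept its direction in all 45 alternatives and its call in 43; the exceptions were leaving the ICH arrays of slide 2 out of the fit (1.13, limma adjusted p = 0.0599) and the unscaled signal (0.41, adjusted p = 0.138). Some of the 45, such as other filters or leaving out a BYHWD array, leave the difference at 0.94 by design. These can change its call and not its direction. The same holds for the other comparisons when an array of the group not compared is left out. With single arrays left out ICH minus sham ran from 0.87 (without ICH 3) to 1.03 (without ICH 4). BYHWD minus sham kept its direction in all 36 alternatives and its call in 34, lost with the slide as a random block (1.02) and unscaled (0.41); single arrays left out gave 0.86 to 1.09. BYHWD minus ICH was not called in any of 42 alternatives (-0.31 to 0.14); its sign turned in 7, to 0.020 with array quality weights, 0.11 against the ICH arrays of slide 2, 0.060 relative to the mean of the other named genes, and 0.0011 (without ICH 2), 0.062 (without ICH 3), 0.035 (without ICH 5) and 0.14 (without BYHWD 1), within a range of -0.10 to 0.14 over single arrays. The 42 leave out Apoe relative to the 3′ Gapdh control (0.27) and the 99th percentile values by slide of the ICH arrays. With the replicate number as a block ICH minus sham of Apoe was 0.94 (limma, adjusted p = 0.013) and no call of Apoe changed. The share of probes called fell there to 2.24% (ICH, sham) and 1.15% (BYHWD, ICH). The 15 pairs of arrays with the same number had correlations of -0.34 to 0.09 in their deviations from the group means (median -0.08). The 60 pairs with other numbers had -0.24 to 0.43 (median 0.01). These deviations still hold the difference between the slides of the ICH arrays. Whether samples with the same number share an origin was not tested. The 99th percentile, unscaled, bright corner, slide 1 alone and uncorrected median signal settings, and quantile or normexp values by slide of the ICH arrays, were chosen after seeing the data. The planned uncorrected mean signal was not run, the median signal taking its place there and in normexp, and the deposited table gave no value for Apoe.

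The share of probes called moved far more than Apoe did. In ICH against sham, 5.03% (81.0% of them higher) became 0.478% in the deposited table, 29.1% with array quality weights, 1.19% with only the 2 groups, 0.339% with the slide as a fixed block or the ICH arrays of slide 1 only, 0.697% with a random block, 36.5% with those of slide 2 only, 0.0503% without those of slide 2, 0.437% on slide 1 alone, 0.190% there unscaled, 0.567% at an adjusted p under 0.01, 1.50% at 2-fold, 2.49% (93.2% higher) by the 99th percentile, 2.58% (93.8%) by the corner spots and 42.6% (2.31%) unscaled. Single arrays left out gave 0.852% (without ICH 5) to 20.2% (without ICH 2). In BYHWD against ICH, 6.13% (59.0% higher) became 9.88% with normexp, 3.68% with no filter, 22.2% with weights, 3.31% with only the 2 groups, 0.00194% with a random block, 27.7% against slide 2, 0.412% at 0.01, 0.554% at 2-fold, 0.00774% by the 99th percentile, 0.0368% (73.7%) by the corner spots and 0.0948% unscaled; single arrays gave 1.74% (without BYHWD 3) to 12.2% (without ICH 3). In BYHWD against sham, 17.3% (73.3% higher) became 30.1% with weights, 0.00581% with a random block, 5.44% at 0.01, 2.69% at 2-fold, 2.50% (86.5%) by the 99th percentile, 3.44% (87.4%) by the corner spots and 42.1% (4.20%) unscaled; single arrays gave 10.6% (without BYHWD 2) to 18.4%, and the higher share fell to 59.1% after quantile normalization, 58.9% after normexp and 55.0% by the median. The cause of these changes was not tested. The Apoe signal was well above background and unsaturated on every array, so neither limits its values.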
